A study of Mus musculus with 16 samples.

Results

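The genes described here are 10 genes of the unfolded protein response: Atf6, Xbp1, Atf4, Ddit3, Hspa5, Hsp90b1, Dnajb9, Sdf2l1, Creld2 and Manf. They were taken by symbol from a table of read counts for 55385 genes, in which they fill 11 rows, because Ddit3 has 2. The second Ddit3 row covers 105 exon bases that all lie within the first, and it held 0 reads in every library, so the first row was used. All 10 genes passed the filter on low counts and were tested among 17019 genes.

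Polyadenylated RNA had been sequenced from cerebral cortices of 16 mice, 5 months old, with 4 animals in each of 4 genotypes: 5xFAD-Dp16, 5xFAD, Dp16 and wild-type C57BL/6J (WT). 5xFAD mice express transgenes of human origin that bear mutations of familial Alzheimer disease. They are driven by the neuronal Thy1 promoter, which sets where and how strongly they are expressed. Dp16 mice carry an extra copy of the part of mouse chromosome 16 that matches most of the human chromosome trisomic in Down syndrome. 5xFAD-Dp16 mice carry both, and these 4 animals were males, whereas the 5xFAD, Dp16 and WT groups each had 2 males and 2 females.

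The endoplasmic reticulum folds the proteins that a cell secretes or places in its membranes. When unfolded proteins build up there, membrane sensors start the unfolded protein response, which raises chaperones, slows protein synthesis and, if the load lasts, favours cell death. Ire1 splices the Xbp1 messenger so that it encodes an active transcription factor, Atf6 is cut to release another, and Perk slows translation while favouring that of Atf4, which raises Ddit3. Neurons make many membrane and secreted proteins, and this response has been studied widely in models of amyloid disease.

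The best known DNA element of the response is the endoplasmic reticulum stress element, bound by Nfy at its CCAAT end and by Atf6 or Xbp1 at its CCACG end. Promoters in RefSeq (build GRCm38.p6) were available for 8 of the 10 genes, and Atf6 and Manf were not among them. Of the 8, 3 held the full element, CCAAT and CCACG separated by 9 bases, on either strand within the 250 bases before the RefSeq start, and they are shown because they carry it. The fixed letters of the element are in capitals, written as CGTGG and ATTGG where it lies on the opposite strand.
Hspa5, chr2:34771840-34772089, plus strand: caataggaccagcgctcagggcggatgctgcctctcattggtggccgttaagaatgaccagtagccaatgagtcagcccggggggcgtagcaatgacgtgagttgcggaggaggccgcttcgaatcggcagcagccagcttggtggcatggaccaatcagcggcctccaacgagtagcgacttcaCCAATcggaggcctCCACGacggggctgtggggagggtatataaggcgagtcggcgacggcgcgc
Hsp90b1, chr10:86705445-86705694, minus strand: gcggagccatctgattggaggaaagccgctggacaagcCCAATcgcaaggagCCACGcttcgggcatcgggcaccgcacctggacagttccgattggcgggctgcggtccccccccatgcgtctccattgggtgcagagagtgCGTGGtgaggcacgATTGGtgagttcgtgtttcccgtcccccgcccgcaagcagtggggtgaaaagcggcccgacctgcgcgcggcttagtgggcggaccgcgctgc
Creld2, chr15:88819396-88819645, plus strand: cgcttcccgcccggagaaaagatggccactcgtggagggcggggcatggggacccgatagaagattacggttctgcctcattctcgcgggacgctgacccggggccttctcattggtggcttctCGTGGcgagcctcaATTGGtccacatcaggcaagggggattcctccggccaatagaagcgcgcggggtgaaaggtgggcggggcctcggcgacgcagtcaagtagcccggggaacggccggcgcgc
Hsp90b1 holds 2 copies in opposite directions, Hspa5 has 1 copy from 65 to 47 bases before its start, and Creld2 has 1. Among all 32851 promoters of this length, 37 hold the element, or 0.113%. On either strand, 0 of the 8 held the second form of the element (ATTGG and CCACG separated by 1 base), the unfolded protein response core TGACGTGG or the Atf4 and Ddit3 type core TGATGNAA. Those are held by 0.0304%, 0.563% and 3.45% of all promoters. The ends of the element are common by themselves: CCACG was found in 6 of the 8 genes and in 28.3% of all promoters, and CCAAT in 7 of the 8 and in 33.8%.

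The genes lie outside the extra segment of Dp16. Sdf2l1 is the one on chromosome 16, at 17130138 to 17132383 (GRCm38), and the segment was taken as 75540514 to 97962622. Exons of some of them overlap other genes, and the counting's strand setting is not given in the sources used here. Of the exon bases of Hsp90b1, 10.3% are shared with 1810014B01Rik on the opposite strand. Manf shares 4.71% with 4930524O07Rik and 4.14% with Dcaf1, both opposite, and Ddit3 shares 3.97% with Mars.

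Libraries held 12483286 to 20385010 counted reads. Thy1 stood at 1470 to 1793 CPM in 5xFAD-Dp16 and 1448 to 1883 CPM in 5xFAD, against 808 to 906 CPM in Dp16 and 854 to 945 CPM in WT, so that it was higher in all 8 carriers of the 5xFAD transgenes. CPM are counts per 1000000 counted reads, after scaling of the library totals by trimmed means (TMM). The 10 neuron markers, none at 0 in all libraries, had summed levels of 7737 to 8902 CPM in 5xFAD-Dp16, 7736 to 11205 in 5xFAD, 7230 to 9102 in Dp16 and 8166 to 9189 in WT. 5xFAD replicate 3 and WT replicate 2 had the lowest median correlations with the other libraries, at 0.938 and 0.939. In bulk tissue, fewer cells of a type and less RNA per cell cannot be told apart.

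Per length, the transcription factor gene Atf4 and the chaperone genes Hspa5 and Hsp90b1 had the highest levels of the 10. Mean levels over the 16 libraries were 143 ± 16.5 RPKM for Atf4 and 120.4 ± 17.5 for Hspa5 (SD, n = 16), and 116 for Hsp90b1, with a range of 91.6 to 135. RPKM are reads scaled by gene length and library total. Next came Ddit3 at 45.8 ± 7.55 RPKM, then Dnajb9 and Manf at 41.3 RPKM each, Xbp1 at 34.0 ± 5.51, Sdf2l1 at 23.0 ± 4.50, Creld2 at 12.5 ± 2.81 and Atf6 at 5.61 ± 1.11. The ranges over libraries of neighbours in this order overlapped, except that every library of Hsp90b1 was above every library of Ddit3, and every library of Creld2 above every library of Atf6. Hspa5 was above Hsp90b1 in 9 of 16 libraries, and Dnajb9 above Manf in 7 of 16.

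**Figure D1:**
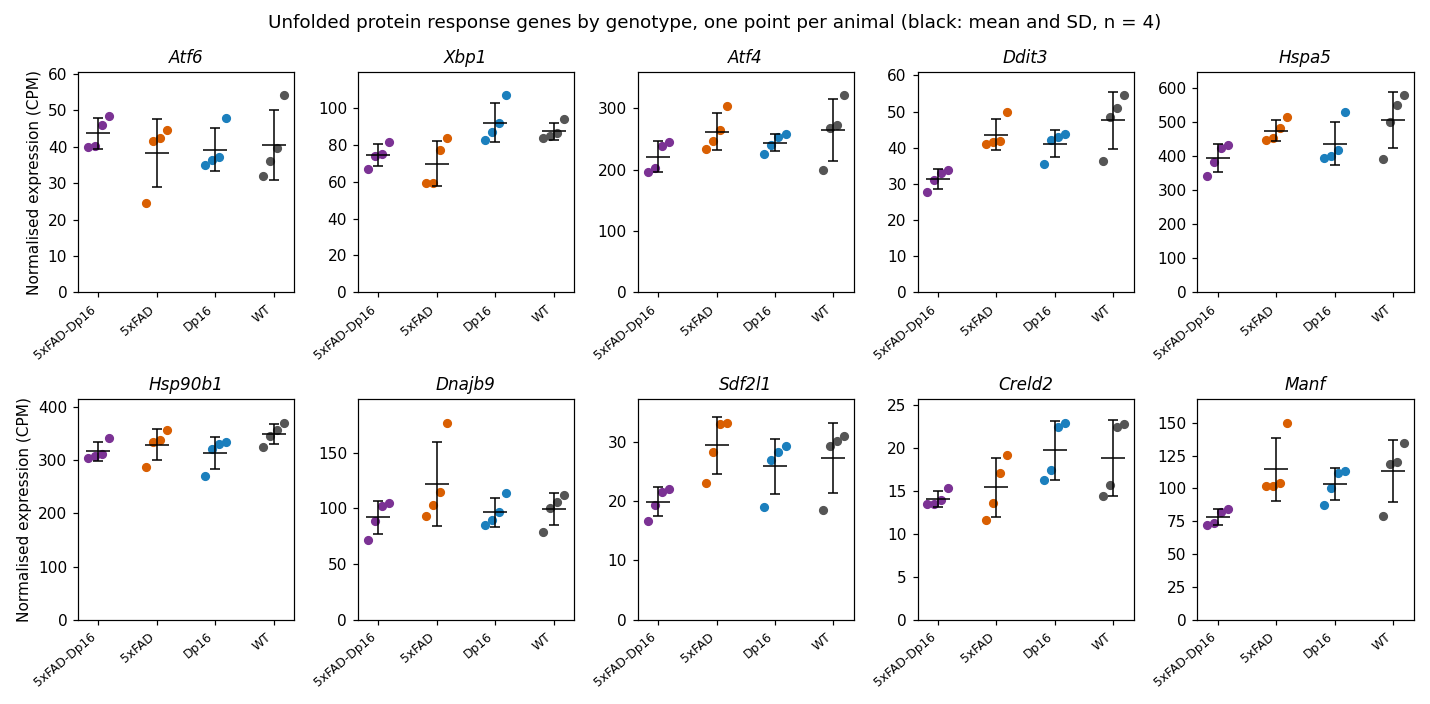
Normalised expression (CPM, vertical axes from 0) of the 10 genes in the 4 genotypes. Points are animals and black bars are the mean and SD of 4. Ddit3 lies at 27.8 to 33.9 CPM in 5xFAD-Dp16, below all animals of the other genotypes, and the share of all genes with this was not computed. With each library's gene-length trend removed (described below), it overlaps with Dp16 and 5xFAD. There, 5xFAD-Dp16 replicate 1 is at 5.27 log2 CPM, Dp16 replicate 4 at 5.22 and 5xFAD replicates 3 and 4 at 5.05 and 5.17.

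No gene of the 10 passed an adjusted p of 0.05 in any of the 8 comparisons of genotype, by the quasi-likelihood test of edgeR, adjusted after Benjamini and Hochberg across the 17019 genes. Adjusted p-values of single genes are from this test unless another tool is named. For 6 of the 10, the lowest of the 16 libraries was one of 5xFAD-Dp16, and the share of all genes with this was not computed. In 5xFAD-Dp16 against 5xFAD, 8 of the 10 log2 differences were negative, with a median of -0.31, against a median of -0.00181 over all genes, of which 50.2% were negative. The same comparison called 0 of 17019 genes at the adjusted threshold (0%), and 4049 genes (23.8%) had an unadjusted p under 0.05. DESeq2 called 814 of all genes, 477 higher and 337 lower, and 2 of the 10, Manf and Ddit3. Of the 10, 5 were lower and 0 higher at an unadjusted p under 0.05, beside 12% of all genes lower and 11.8% higher. With each library's gene-length trend removed, a scaling described with the correlations of that trend, the median of the 10 was -0.09, and 3 were lower at that p, beside 11.7% of all genes.

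Manf encodes a secreted and luminal protein of the endoplasmic reticulum that protects neurons. It stood at 72.4, 82.2, 73.8 and 84.6 CPM in the 5xFAD-Dp16 cortices and at 104, 102, 150.0 and 102 CPM in the 5xFAD cortices. The groups did not overlap, and 1 of the 5xFAD animals was far above the rest. Manf averaged 78.2 ± 6.07 CPM in 5xFAD-Dp16 and 114 ± 23.8 CPM in 5xFAD (SD, n = 4 each), and the log2 difference was -0.60 ± 0.17 (SE; adjusted p = 0.155). Without the high animal, 5xFAD replicate 3, it was -0.40 (adjusted p = 0.700). The adjusted p of Manf was 0.0421 by DESeq2, 0.0139 in the males alone and 0.00715 with only the compared groups in the model. Those fits called 814 (2.79%), 3956 (22.5%) and 5020 (31.3%) of the genes they tested, in that order. The DESeq2 share is over 29139 genes with no filter on low counts, so it is not on the same footing as the other 2. The 5xFAD males are replicates 3 and 4, so the males alone set 4 animals against 2, of which 1 is the high animal.

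Ddit3, also called Chop, encodes a transcription factor that favours cell death when the stress lasts. It had 31.0, 33.9, 27.8 and 32.9 CPM in 5xFAD-Dp16 and 41.0, 42.0, 49.9 and 41.7 CPM in 5xFAD, with no overlap. Ddit3 averaged 31.4 ± 2.71 CPM in 5xFAD-Dp16 and 43.6 ± 4.19 CPM in 5xFAD (SD, n = 4 each). The log2 difference was -0.49 ± 0.15 (adjusted p = 0.155), and the adjusted p was 0.0450 by DESeq2, 0.0244 in the males alone and 0.0131 with only the compared groups. Without 5xFAD replicate 3, the difference of Ddit3 was -0.40 (adjusted p = 0.700).

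Sdf2l1, a partner of Hspa5 in the endoplasmic reticulum lumen, had 22.1, 19.3, 16.7 and 21.5 CPM in 5xFAD-Dp16 and 28.2, 33.2, 33.0 and 23.1 CPM in 5xFAD. The groups did not overlap, with a log2 difference of -0.55 ± 0.20 (adjusted p = 0.159). Hspa5, the main chaperone of the lumen and the protein that holds the sensors inactive, had 432, 382, 341 and 423 CPM in 5xFAD-Dp16 and 484, 513, 452 and 447 CPM in 5xFAD. Its highest 5xFAD-Dp16 value lay just under its lowest 5xFAD value, and the log2 difference was -0.33 ± 0.15 (adjusted p = 0.193). Groups that do not overlap, with 5xFAD-Dp16 lower, were found for 4 of the 10 genes and for 5.87% of all genes. With the length trend removed, Manf and Hspa5 still did not overlap, but Ddit3 and Sdf2l1 did. The share of all genes was not computed for that scaling.

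Dnajb9, a cochaperone of Hspa5 and a partner of Ire1, had 72.0, 104, 88.8 and 102 CPM in 5xFAD-Dp16 and 93.3, 103, 177 and 115 CPM in 5xFAD. The groups overlapped, and 5xFAD replicate 3 stood far above the other 7 animals. The log2 difference of -0.49 ± 0.19 (adjusted p = 0.162) was -0.22 without that library, and Dnajb9 was called in the males alone (adjusted p = 0.0241), which include 5xFAD replicate 3, and with only the compared groups (adjusted p = 0.0168). These fits called 3 of the 10 genes each, beside the 22.5% and 31.3% of all genes. Among the other genes, Atf4 differed by -0.28 ± 0.15, Atf6 by 0.25 ± 0.21, Xbp1 by 0.13 ± 0.14, Hsp90b1 by -0.07 ± 0.12 and Creld2 by -0.03 ± 0.21, all log2 with SE and with adjusted p of 0.249 or more. With the length trend removed, Atf6 turned to -0.05, Creld2 to 0.23 and Atf4 was at -0.09 on the log2 scale. Hsp90b1, the lumen's relative of the cytosolic Hsp90 proteins, had 304 to 343 CPM in 5xFAD-Dp16 and 288 to 358 CPM in 5xFAD.

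Markers of other cells also had different values in the same comparison. The summed level of 10 microglia markers was 637 to 727 CPM in 5xFAD-Dp16 and 821 to 1191 CPM in 5xFAD, with no marker at 0 in all libraries. In 5xFAD-Dp16 against 5xFAD, 6 of these 10 were lower, 5 of them at an unadjusted p under 0.05, and the smallest adjusted p was 0.0795. Choroid plexus and ependyma markers, which come from secretory tissue, summed to 28.3 to 729 CPM in 5xFAD-Dp16 and 32.1 to 42.5 CPM in 5xFAD, with 1 library, 5xFAD-Dp16 replicate 2, holding the high value, none at 0 in all libraries. Without that library, the differences of Manf and Ddit3 were -0.62 and -0.53. Endothelium and mural cell markers summed to 131 to 232 CPM in 5xFAD-Dp16 and 98.2 to 150.2 CPM in 5xFAD, and astrocyte markers to 4832 to 6038 CPM in 5xFAD-Dp16 and 4920 to 6597 CPM in 5xFAD, with 10 genes in each list and none at 0. Of 10 lymphocyte and plasma cell markers, Mzb1 was at 0 in every library, and the list summed to 17.0 to 22.1 CPM in 5xFAD-Dp16 and 14.3 to 42.8 CPM in 5xFAD. Immediate early genes had 16 of 20 positive differences, 6 of them at an unadjusted p under 0.05. The part of these cells and genes in the differences was not tested.

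In 5xFAD-Dp16 against Dp16, which differ by the 5xFAD transgenes, 8 of the 10 genes had negative log2 differences, with a median of -0.24 against 0.0133 over all genes, of which 48.4% were negative. No gene of the 10 was called, beside 0.0176% of all genes, and DESeq2 called 0 of the 10. Manf had 100.4, 111, 87.2 and 113 CPM in Dp16, so that the 4 5xFAD-Dp16 values lay below the Dp16 values, with a log2 difference of -0.46 ± 0.18 (adjusted p = 0.758). Ddit3 had 43.8, 42.1, 35.6 and 43.0 CPM in Dp16, again with no overlap, and differed by -0.41 ± 0.15 (adjusted p = 0.758). At an unadjusted p under 0.05, these 2 were lower and 0 of the 10 higher, beside 2.63% of all genes lower and 2.67% higher (5.29% in all). DESeq2 called 25 genes in this comparison. The median of the 10 genes was -0.13 with the length trend removed, with 1 lower at an unadjusted p under 0.05, beside 2.23% of all genes.

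Creld2, a lumenal protein that helps other proteins fold, had 13.5, 15.4, 13.5 and 13.9 CPM in 5xFAD-Dp16 and 22.5, 23.0, 16.2 and 17.4 CPM in Dp16. Xbp1 had 81.6, 75.2, 66.9 and 74.2 CPM in 5xFAD-Dp16 and 82.6, 107, 86.8 and 92.1 CPM in Dp16. Both were lower with no overlap, with differences of -0.40 ± 0.20 and -0.28 ± 0.14 on the log2 scale (adjusted p = 0.758 each). In all, 4 of the 10 genes had groups that did not overlap, with 5xFAD-Dp16 lower, beside 2.61% of all genes. With the length trend removed, Manf still did not overlap, but Ddit3, Xbp1 and Creld2 did. Their highest 5xFAD-Dp16 values were then 5.27, 6.39 and 3.99 log2 CPM, and their lowest Dp16 values 5.22, 6.35 and 3.97. The share of all genes was not computed for that scaling. Counts per gene cannot show how much of the Xbp1 messenger was spliced. Oligodendrocyte markers were lower in 10 of 10, 2 of them at an unadjusted p under 0.05, and summed to 6368 to 6481 CPM in 5xFAD-Dp16 and 6998 to 9138 CPM in Dp16. Immediate early genes were higher in 18 of 20, 8 of them at an unadjusted p under 0.05, and the part of either list was not tested.

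Against WT, 9 of the 10 genes were lower in 5xFAD-Dp16, with a median log2 difference of -0.31 against 0.0239 over all genes, of which 47.6% were negative. None was called by edgeR, beside 0.047% of all genes. DESeq2 called 1 of the 10, Ddit3 (adjusted p = 0.038), beside 80 of all genes (0.275%). Ddit3 had 51.0, 54.5, 48.6 and 36.3 CPM in WT, above the 5xFAD-Dp16 values in each library, and differed by -0.62 ± 0.15 (adjusted p = 0.233). Over the 16 fits that each left out 1 library, the log2 difference of Ddit3 ran from -0.70 to -0.56 and the adjusted p from 0.0485 to 0.571. The largest difference and the smallest p came without WT replicate 4. That animal is the lowest of WT for Ddit3, so its removal raises the WT mean, and this fit is no separate support. Those 16 fits called 3 to 21 of all genes. Manf had 120.0, 135, 119 and 79.1 CPM in WT, and WT replicate 4 alone fell within the 5xFAD-Dp16 range.

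For Manf the log2 difference from WT was -0.59 ± 0.18 (adjusted p = 0.385), and -0.68 without WT replicate 4. Hspa5 had 551, 501, 578 and 390.2 CPM in WT and differed by -0.41 ± 0.14 (adjusted p = 0.443). Sdf2l1 had 30.2, 30.9, 29.3 and 18.4 CPM in WT and differed by -0.44 ± 0.20 (adjusted p = 0.479). At an unadjusted p under 0.05, 4 genes were lower and 0 higher, beside 5.12% of all genes lower and 5.25% higher (10.4% in all). With the length trend removed, the median of the 10 was -0.15 and 3 were lower at that p, beside 4.28% of all genes. Groups did not overlap, with 5xFAD-Dp16 lower, for Ddit3 and Xbp1, 2 of the 10, beside 1.61% of all genes. With the length trend removed, Ddit3 still did not overlap, but Xbp1 did. The comparisons of 5xFAD-Dp16 with the 3 other genotypes share the 5xFAD-Dp16 animals. Summed oligodendrocyte markers were also lower in this group, at 6368 to 6481 CPM in 5xFAD-Dp16 and 7690 to 9174 CPM in WT, with 10 of 10 lower and no marker at 0, and their part was not tested.

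**Figure D2:**
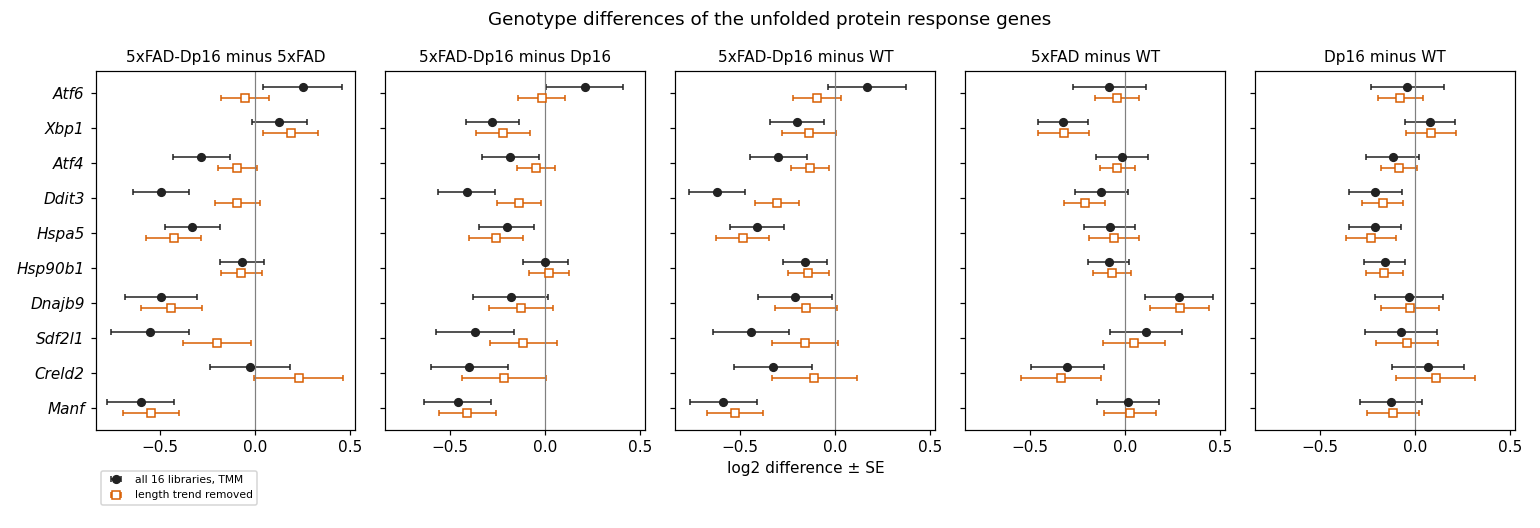
log2 differences (horizontal axes, with SE) of the 10 genes in 5 comparisons. Filled circles are the values by TMM scaling and open squares those with each library's length trend removed. In 5xFAD-Dp16 against 5xFAD, Ddit3 moves to -0.09 and Manf to -0.55.

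With each alteration alone, the median log2 difference of the 10 genes was -0.08 in 5xFAD against WT and -0.10 in Dp16 against WT, beside 0.02 and 0.00170 over all genes. In 5xFAD against WT, edgeR called 0 of the 10, beside 0.176% of all genes, DESeq2 called 0, and 7 of the 10 were negative, beside 47.9% of all genes. Unadjusted p-values under 0.05 numbered 1 lower and 0 higher among the 10, beside 5.53% of all genes lower and 5.22% higher (10.7% in all). That gene was Xbp1, the target of Ire1, at 83.6, 77.3, 59.5 and 59.2 CPM in 5xFAD and 86.6, 84.7, 94.2 and 83.8 CPM in WT. The 5xFAD values lay below the WT values in each library, as for 2.68% of all genes, with a log2 difference of -0.33 ± 0.13 (adjusted p = 0.398). Manf differed by 0.02 ± 0.16 and Hspa5 by -0.08 ± 0.13 in the same comparison. Microglia markers summed to 821 to 1191 CPM in 5xFAD and 580.0 to 690 CPM in WT, and 3 of the 10 were called higher. Endothelium and mural cell markers summed to 98.2 to 150.2 CPM in 5xFAD and 179.8 to 252 CPM in WT, with 9 of 10 lower and 5 of them at an unadjusted p under 0.05. Oligodendrocyte markers were lower in 7 of 10, with 5 at that p, and immediate early genes in 20 of 20, with 9 at that p. The part of these lists in the lower Xbp1 values was not tested.

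In Dp16 against WT, edgeR and DESeq2 called 0 of the 10, beside 0.0176% of all genes by edgeR, and 0 of the 10 had an unadjusted p under 0.05, beside 3.88% of all genes, 1.4% lower and 2.48% higher. Negative differences numbered 8 of 10, beside 49.6% of all genes, and groups did not overlap, with Dp16 lower, for 0 of 10, beside 0.852%. The log2 differences ran from -0.21 for Hspa5 to 0.08 for Xbp1, with SE of 0.11 to 0.19. Hspa5 had 399.9, 529, 394 and 419 CPM in Dp16, a range that overlaps that of WT. Immediate early genes were lower in 19 of 20 in this comparison, 10 of them at an unadjusted p under 0.05. Atf4, the factor favoured when translation slows, had 226 to 257 CPM in Dp16 and 199 to 321 CPM in WT. Its 5xFAD-Dp16 and 5xFAD values were 196 to 246 and 233 to 304 CPM. Atf6, the sensor cut in the Golgi, had 40.1 to 48.6 CPM in 5xFAD-Dp16, 24.6 to 44.7 in 5xFAD, 35.0 to 48.0 in Dp16 and 32.1 to 54.1 in WT.

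Averaged over both backgrounds, Dp16 carriers had a median log2 difference of -0.23 from non-carriers over the 10 genes, against 0.0146 over all genes, with 7 of 10 negative beside 47.9% of all genes. edgeR and DESeq2 called 0 of the 10, beside 0.094% of all genes by edgeR, and 0 of the 10 had carriers all below non-carriers, beside 0.0176%. At an unadjusted p under 0.05, 4 of the 10 were lower and 0 higher, beside 7.76% of all genes lower and 7.27% higher (15% in all). They were Ddit3 (-0.35 ± 0.10), Manf (-0.36 ± 0.12), Hspa5 (-0.27 ± 0.10) and Sdf2l1 (-0.31 ± 0.14), with adjusted p of 0.293 to 0.322. With the length trend removed, the median of the 10 was -0.12 and 2 were lower at an unadjusted p under 0.05, beside 7.87% of all genes. In the males alone, Ddit3 and Manf were called lower (adjusted p = 0.0306 and 0.0328), among 2488 called genes (14.2%). Endothelium and mural cell markers were higher in 9 of 10 and microglia markers lower in 6 of 10, with 1 and 3 of them at an unadjusted p under 0.05, and their part was not tested.

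5xFAD carriers had a median log2 difference of -0.13 from non-carriers, against 0.000835 over all genes, with 8 of 10 negative beside 49.8% of all genes. edgeR and DESeq2 called 0 of the 10, beside 0.188% of all genes by edgeR, and 0 of the 10 had carriers all below non-carriers, beside 0.118%. There were 3 lower and 0 higher at an unadjusted p under 0.05, beside 3.34% of all genes lower and 4.2% higher (7.53% in all). They were Xbp1 (-0.30 ± 0.09), Ddit3 (-0.27 ± 0.10) and Creld2 (-0.35 ± 0.14), with adjusted p of 0.371 to 0.538. Oligodendrocyte markers were also lower in 5xFAD carriers for 10 of 10 genes, 6 of them at an unadjusted p under 0.05, with summed levels of 6368 to 6481 CPM in 5xFAD-Dp16, 6138 to 7837 CPM in 5xFAD, 6998 to 9138 CPM in Dp16 and 7690 to 9174 CPM in WT. Endothelium and mural cell markers were lower in 10 of 10, with 5 at that p, and microglia markers higher in 9 of 10, with 2 called. The part of these lists was not tested. The interaction asks whether the Dp16 difference depends on the 5xFAD transgenes. It called 0 of the 10 by edgeR and by DESeq2, beside 0% of all genes by edgeR. None of the 10 (0) had an unadjusted p under 0.05, beside 9.35% of all genes, 4.77% below 0 and 4.58% above, and 7 of 10 were negative beside 50.8%. Manf had the smallest p, with an interaction of -0.47 ± 0.24 on the log2 scale (adjusted p = 0.522). Immediate early genes had 20 of 20 positive interactions, 11 of them at an unadjusted p under 0.05. With the length trend removed, 1 of the 10 had a negative interaction at that p, beside 5.09% of all genes. Between males and females, edgeR and DESeq2 called 0 of the 10, beside 0.0353% of all genes by edgeR, and 0 had an unadjusted p under 0.05, beside 4.03% (2.56% lower in males, 1.47% higher). The male minus female differences were negative for 4 of 10, beside 51.1% of all genes, and ran from -0.19 for Creld2 to 0.20 for Dnajb9 on the log2 scale.

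Libraries differed in how expression followed gene length, and several of the genes moved with this trend. The trend of a library is Spearman's rho, across genes, between gene length and the library's deviation from the mean. It ran from 0.102 to 0.451 in 5xFAD-Dp16, -0.462 to 0.227 in 5xFAD, -0.308 to 0.263 in Dp16 and -0.360 to 0.435 in WT. Over the 16 libraries, the log2 CPM of Manf had a Pearson r of -0.91 with the trend (permutation p = 1e-05, the smallest that 100000 permutations can give) and a rho of -0.90, and r was -0.87 without the 2 libraries with the most extreme trends. Within genotypes, from deviations from the genotype means, r was -0.90 for Manf. Ddit3 had r = -0.85 and rho = -0.86, Atf4 -0.86 and -0.86, Dnajb9 -0.81 and -0.87, and Sdf2l1 -0.73 and -0.73.

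Atf6, whose gene model is the longest of the 10 at 7246 bases, had the opposite sign, with r = 0.81 and rho = 0.81. These 6 relations of 10 computed had permutation p, adjusted over the 10, of 0.00312 or less for r, and without the 2 libraries their r ran from 0.76 for Atf6 down to -0.87 for Manf. Hspa5 had r = -0.52 and rho = -0.52 (adjusted permutation p = 0.0593), and for Hsp90b1, Creld2 and Xbp1 r was 0.31, -0.20 and 0.05. Ddit3 has a gene model of 890 bases, Sdf2l1 of 1108 and Manf of 2464.

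**Figure D3:**
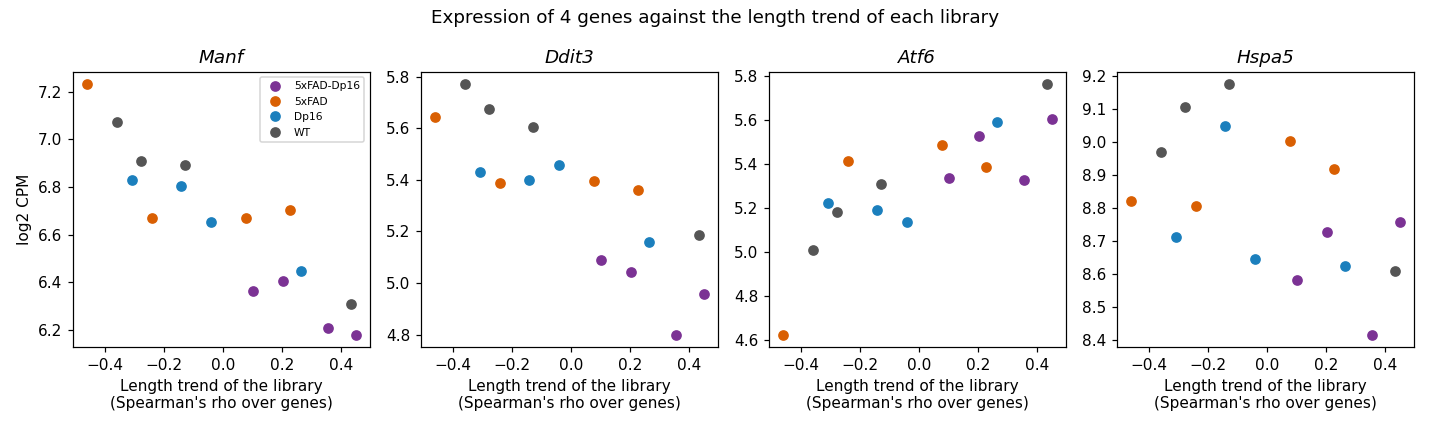
log2 CPM (vertical axes) of Manf, Ddit3, Atf6 and Hspa5 against the length trend of each library (horizontal axes, Spearman's rho over genes). Points are animals, coloured by genotype. Manf and Ddit3 run downward (r = -0.91 and -0.85), Atf6 upward (r = 0.81), and the 4 5xFAD-Dp16 animals lie at trends above 0.

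With the trend removed from each library, the differences of Manf and Hspa5 between 5xFAD-Dp16 and 5xFAD were -0.55 ± 0.15 and -0.43 ± 0.14 (log2, adjusted p = 0.128 and 0.135). Dnajb9 differed by -0.44 ± 0.16 (adjusted p = 0.150). Ddit3 and Sdf2l1 then differed by -0.09 and -0.20, where the values with the trend in place were -0.49 and -0.55. Against WT, the differences of 5xFAD-Dp16 after this step were -0.52 for Manf, -0.49 for Hspa5, -0.31 for Ddit3 and -0.16 for Sdf2l1. The step takes out the deviation shared by genes of similar length, and the values of Manf moved little. In WT replicate 4, Manf went from 6.31 to 6.35 log2 CPM, and in 5xFAD replicate 3 from 7.23 to 7.13. Dnajb9 went from 7.47 to 7.36 in 5xFAD replicate 3. Hspa5 went from 8.61 to 8.50 in WT replicate 4 (trend 0.435) and from 8.82 to 8.94 in 5xFAD replicate 3 (trend -0.462). For Hspa5 these 2 moves follow the direction of its negative r with the trend. Correlations with the trend were not computed again after the step. The differences of Manf, Hspa5 and Dnajb9 are therefore not shown to be free of the trend. For Xbp1, the 5xFAD difference from WT was -0.32 with the trend removed. No gene of the 10 was called in any comparison after this step.

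Many of the 10 genes varied together over the 16 animals. Of 45 pairs, 20 had correlated log2 CPM at an adjusted permutation p under 0.05, 15 of them positive and 5 negative, and the 5 negative pairs all included Atf6. The strongest was Ddit3 with Manf (r = 0.94, rho = 0.91, adjusted permutation p = 0.00045 for each, and r = 0.92 without the 2 libraries farthest from the median of Ddit3). Within genotypes its r was 0.92, and with the length trend removed it was 0.27. All pairs share libraries, depth and the length trend.

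After removal of the trend, 9 pairs were called, 8 positive and 1 negative, and 6 of them were also called before. The removal takes out what genes of similar length share, so a gene's own relation to the trend can remain in these r. Hspa5 with Manf had r = 0.67 and rho = 0.72 as measured, with an adjusted permutation p of 0.0135 for r, and r = 0.82 with the trend removed. Both genes had negative r with the trend (-0.52 and -0.91), so the 0.82 is not shown to be free of it. As measured, the r of this pair was 0.59 without the 2 farthest libraries (adjusted permutation p = 0.082). Within genotypes it was 0.47 (adjusted permutation p = 0.253), so the adjusted call was lost in both while r stayed positive. Xbp1 with Creld2 had r = 0.72 and rho = 0.74 (adjusted permutation p = 0.00498 for r), and r = 0.81 once the trend was removed. Without 2 libraries its r was 0.62 (adjusted permutation p = 0.0599) and within genotypes 0.56 (adjusted permutation p = 0.153), so its adjusted call was lost in both as well. Hspa5 with Sdf2l1 had r = 0.81 (adjusted permutation p = 0.00135), rho = 0.85, r = 0.77 without 2 libraries, 0.67 with the trend removed and 0.76 within genotypes (adjusted permutation p = 0.0114).

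**Figure D4:**
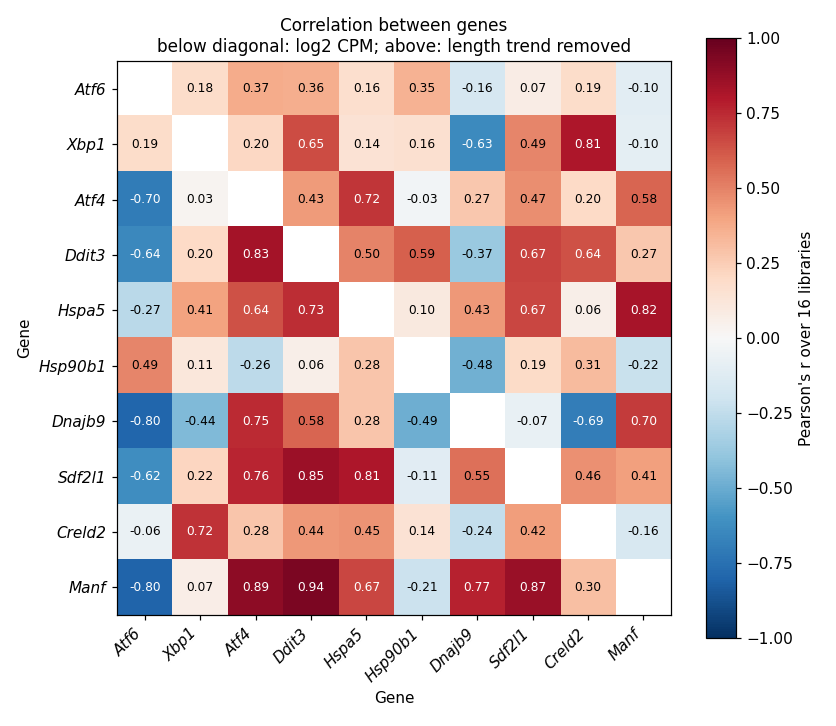
Pearson's r over 16 libraries between each pair of the 10 genes, from log2 CPM below the diagonal and with the length trend removed above it. Red is positive and blue negative. Ddit3 with Manf is 0.94 below the diagonal and 0.27 above it.

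The genes most like Hspa5 over the 16 libraries were sought among 9380 genes with a mean of at least 10 CPM, including the rest of the 10. Genes of the wider pathway lists, the immediate early genes and the cell type markers were left out, so the ranks do not cover them. Nmral1 had the highest Pearson r, at 0.83, and of the 10 genes Sdf2l1 came next at 0.81. Josd2 (0.78), Cog4 (0.77), Lonp2 (0.76) and Mrps27 (0.75) followed. Ddit3 ranked 10, Manf 27 and Atf4 54 in this order, while Hsp90b1 ranked 2642 and Atf6 6545.

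The wider pathway was followed with 5 lists of other genes, and edgeR called 0 of their 108 tested genes in each of the 8 comparisons. Unadjusted p-values under 0.05 numbered 4 to 29 of the 108 by comparison, or 3.7% to 26.9%, beside 3.88% to 23.8% of all genes. DESeq2 called 3 of the 108 in 5xFAD-Dp16 against 5xFAD, beside 2.79% of all genes. It called 1 each in 5xFAD-Dp16 against WT, in Dp16 carriers and in 5xFAD carriers, and 0 in the others. Of all genes it called 0.275%, 0.35% and 0.439% in those with 1, in that order. In Dp16 carriers against non-carriers, endoplasmic reticulum chaperones and folding enzymes had 9 of 23 positive differences, with a median of -0.11 on the log2 scale, beside 52.1% positive and a median of 0.0146 over all genes. At an unadjusted p under 0.05, 7 of the 23 were lower and 1 higher. Their summed level was 2679 to 2945 CPM in 5xFAD-Dp16, 2990 to 3316 CPM in 5xFAD, 2864 to 3084 CPM in Dp16 and 2883 to 3375 CPM in WT. Calr, a lectin chaperone of the lumen, differed by -0.27 ± 0.08 (adjusted p = 0.307, and 0.0495 by DESeq2), and Pdia3, a disulfide isomerase that works with it, by -0.24 ± 0.08 (adjusted p = 0.322). The sensors and their partners had a median of opposite sign, with 9 of 12 positive, a median of 0.11 and 0 at an unadjusted p under 0.05. Tmbim6, a membrane protein that restrains Ire1, differed by 0.26 ± 0.13 and Mbtps1, a protease that cuts Atf6, by 0.19 ± 0.12 (adjusted p = 0.343 and 0.391).

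In the same comparison, 9 of 19 genes of degradation from the endoplasmic reticulum were positive, with a median of -0.06, 0 higher and 1 lower at an unadjusted p under 0.05. Selenos, a membrane part of the export complex, differed by -0.27 ± 0.12 and Os9, a lectin that picks misfolded glycoproteins, by 0.33 ± 0.17 (adjusted p = 0.324 and 0.353). Of 29 tested targets of the integrated stress response, the arm that runs through Atf4, 19 were positive with a median of 0.06, 2 higher and 4 lower by the same mark. Slc7a5, an amino acid transporter, differed by 0.55 ± 0.22 and Psat1, an enzyme of serine synthesis, by -0.27 ± 0.11 (adjusted p = 0.322 each). The translocon and secretory genes had 12 of 25 positive and a median of -0.01, with Sec24d, a coat protein of transport vesicles, at 0.54 ± 0.19 and Ssr4, a part of the translocon, at -0.34 ± 0.14 (adjusted p = 0.322 each). Of these 25, 1 was higher and 4 lower at an unadjusted p under 0.05. In the males alone, where 2488 of all genes (14.2%) were called, Tmbim6, Mbtps1, Selenos, Os9, Psat1, Slc7a5, Sec24d and Ssr4 were called, in the same direction. The males are part of the same animals, and these genes were named for the smallest p of their lists in this comparison. Their calls in the males are therefore no separate support.

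In 5xFAD carriers against non-carriers, positive differences numbered 3 of 12 for the sensors, 6 of 23 for the chaperones, 9 of 19 for degradation, 8 of 29 for the integrated stress response and 4 of 25 for the translocon and secretory genes, beside 50.2% of all genes. The medians were -0.04, -0.05, -0.00175, -0.08 and -0.05 on the log2 scale in that order. At an unadjusted p under 0.05, 3 of these genes were higher and 5 lower over the 5 lists. Phgdh, an enzyme of serine synthesis, differed by -0.33 ± 0.09 (adjusted p = 0.248, and 0.0498 by DESeq2) and Ddit4, an inhibitor of mTOR signalling, by -0.29 ± 0.12 (adjusted p = 0.590). Herpud1, a membrane part of the degradation complex, differed by -0.23 ± 0.08 (adjusted p = 0.503). Pdia4, a disulfide isomerase, differed by -0.22 ± 0.10 and Mesd, a chaperone of lipoprotein receptors, by -0.18 ± 0.12 (adjusted p = 0.624 and 0.800). Mbtps2, the second protease that cuts Atf6, differed by 0.26 ± 0.11, Traf2, an adaptor of Ire1, by -0.24 ± 0.12, Kdelr1, a retrieval receptor, by -0.16 ± 0.08 and Sec63, a part of the translocon, by 0.16 ± 0.08, with adjusted p of 0.569 to 0.725.

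Immediate early genes, which mark recent neuronal activity, summed to 937 to 1631 CPM in 5xFAD-Dp16, 698 to 1052 CPM in 5xFAD, 699.7 to 1167 CPM in Dp16 and 942 to 1559 CPM in WT, over 20 genes with none at 0 in all libraries. Their part in the differences was not tested.

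**Figure D5:**
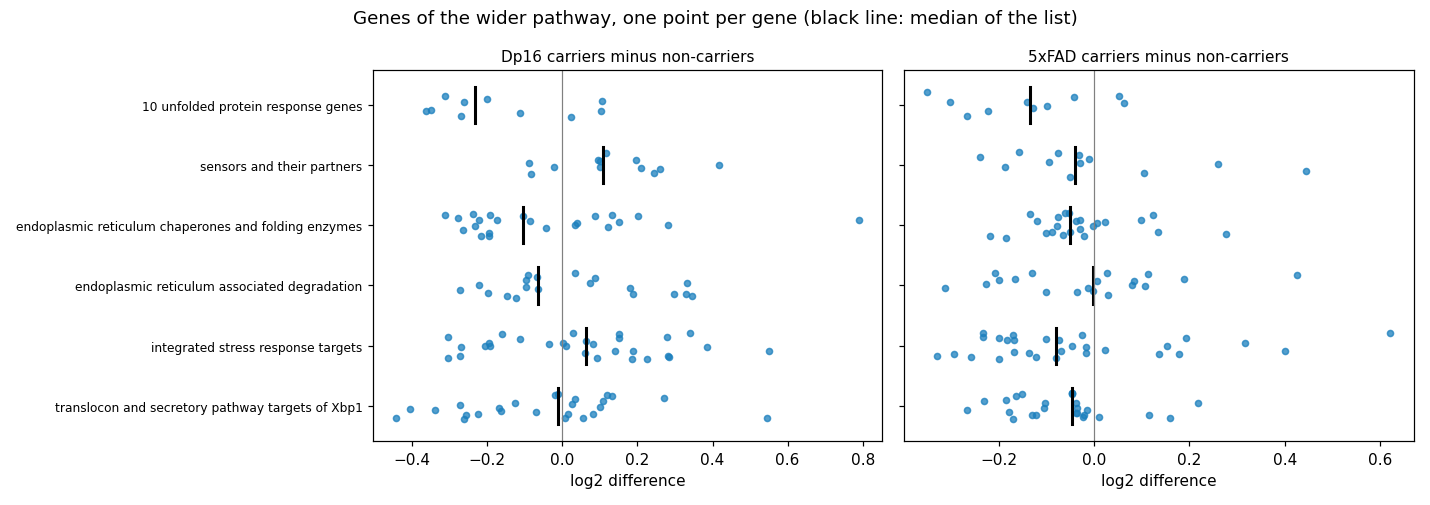
log2 differences (horizontal axes) of single genes by list in Dp16 carriers and in 5xFAD carriers, each against non-carriers. Points are genes and black lines are list medians. In Dp16 carriers the median of the 10 genes is -0.23 and that of the sensors is 0.11.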

How the data were processed

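Raw read counts per gene were deposited by the authors with no normalization, 1 library per animal. Per the submitters' processing notes, HISAT2 2.1.0, SAMtools 1.5, HTSeq 0.6.1, FastQC 0.11.5 and bcl2fastq were used with GRCm38, with no roles given. The RPKM values deposited by the authors match the counts scaled by gene length and library total (100% of non-zero values within 0.1%), and served for levels and lengths. Coordinates came from GENCODE M21, an earlier release of the same build than the files name, in which 55144 identifiers matched and 241 did not.

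Genes were kept by filterByExpr (17019 of 55385). Genotype means with an additive sex term were fitted to 16 libraries with edgeR 4.0.16 (R 4.3.3) after TMM scaling, with robust quasi-likelihood tests, two-sided, and Benjamini-Hochberg adjustment over all tested genes at 0.05. DESeq2 1.42.0 was an alternative, as were other fits given with the closing limits. Shares of all genes called by DESeq2 are over 29139 genes with a p-value, without the filter on low counts. SE is the size of the log2 difference over the square root of F. Correlations used log2 CPM (prior count 2) and 100000 permutations, adjusted over 45 pairs, with SciPy 1.17.1. The length trend was removed through lowess offsets (span 0.3). Scripts were tested on simulated data. Carrier comparisons average the difference over both backgrounds.

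The 10 genes and the lists were chosen with earlier results of these data known. Named from the other lists were genes past the threshold or else the 2 with the smallest p, in the 2 carrier comparisons. The 5 genes outside the lists most like Hspa5 were named as well. Some items are not reported here. P-values of the genotype tests set a difference against the spread between animals, and those of correlations come from permuted libraries. No 2 libraries were identical.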

Additional observations from a re-analysis of the deposited data

Results flagged for a closer look

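In 4 of the 40 groups of 4 animals, 1 animal stood far from the other 3 by Dixon's test, and chance flags about 1 in 20 groups (5%). Of the 4, 3 were in 5xFAD replicate 3, the library with the lowest length trend (-0.462) and the lowest median correlation with the others (0.938). There, Manf was at 150.0 CPM against 102 to 104 CPM in the other 3 5xFAD animals, and Ddit3 at 49.9 CPM against 41.0 to 42.0 CPM. Atf6 was at 24.6 CPM in that library against 41.7 to 44.7 CPM in the others. In WT replicate 4, Sdf2l1 was at 18.4 CPM against 29.3 to 30.9 CPM in the other 3 WT animals, and that library had the highest length trend of the WT group (0.435). Within genotypes, the correlation with that trend was -0.90 for Manf, -0.88 for Ddit3, 0.82 for Atf6 and -0.61 for Sdf2l1.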

How the results depend on the processing

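With 4 animals a group and 5xFAD-Dp16 all male, sex is separated from that genotype only through the other groups. In 5xFAD-Dp16 against 5xFAD, where edgeR called 0 of the 10 genes, DESeq2 called 2, the males alone 3, no filter on low counts 1 and only the compared groups 3. In 5xFAD-Dp16 against WT, DESeq2 called 1, and leaving out each library in turn called 0 to 1. In Dp16 carriers, the males alone called 2. Of 20 correlated pairs, 9 were called with the length trend removed (6 of them among the 20) and 11 without 2 libraries. Of the 20 pairs, those that changed sign with the trend removed were Atf4 with Atf6 (0.37), Ddit3 with Atf6 (0.36), Atf6 with Sdf2l1 (0.074), Ddit3 with Dnajb9 (-0.37) and Dnajb9 with Sdf2l1 (-0.075). Within genotypes none of the 20 changed sign, and Ddit3 with Xbp1, called only with the trend removed, was at -0.025. The cause of these shifts was not tested. Counts over all genes moved by over 1.5 times as follows. Against 0 genes by edgeR in 5xFAD-Dp16 against 5xFAD, DESeq2 called 814, the males alone 3956, no filter 2215, only the compared groups 5020, no sex term 16 and the trend removed 4. Against 16 in Dp16 carriers, those were 102 by DESeq2, 2488 in males, 1097 with no filter, 35 with the trend removed and 9 with the replicate block. In 5xFAD against WT (30) they were 196 by DESeq2, 5 in males, 235 with no filter and 7 with only those groups, and in 5xFAD carriers (32) 128 by DESeq2, 10 in males, 105 with no filter and 17 with the block. In 5xFAD-Dp16 against Dp16 (3) they were 25 by DESeq2, 45 with no filter and 5 with only those groups. In 5xFAD-Dp16 against WT (8) they were 80 by DESeq2, 2 in males, 292 with no filter, 14 without sex, 0 with only those groups and 3 with the block. In Dp16 against WT (3) they were 75 by DESeq2, 16 with the trend removed, 43 with no filter and 0 in males, with only those groups or with the block, and for the interaction (0) 28 by DESeq2 and 346 with no filter. Leaving out each library in turn called 0 to 42 genes in 5xFAD-Dp16 against 5xFAD, 10 to 43 in Dp16 carriers, 13 to 49 in 5xFAD carriers, 16 to 32 in 5xFAD against WT, 2 to 5 in 5xFAD-Dp16 against Dp16, 3 to 21 in 5xFAD-Dp16 against WT, 0 to 3 in Dp16 against WT and 0 to 1 for the interaction. No difference of the 10 genes with an unadjusted p under 0.05 changed sign under any alternative run. Those differences were large beside their SE and the alternatives refit the same animals, so a change was unlikely. Over all differences of the 10 genes, sign changes ran from 1 of 250 values in 5xFAD-Dp16 against WT to 17 of 250 in Dp16 against WT. With the replicate number as a replicate block, 0 of the 10 were called in the 8 comparisons. The numbers were not taken to pair animals, since same-numbered animals had correlated deviations of -0.36 to 0.32, and 1 of 16 libraries correlated best with its own number. Without 5xFAD replicate 3 and WT replicate 2 together, chosen after seeing the data, 0 of the 10 were called, Manf differed by -0.46 between 5xFAD-Dp16 and 5xFAD, and 18 genes were called in 5xFAD against WT, 5 in 5xFAD-Dp16 against Dp16 and 1 in Dp16 against WT.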
